A study of Schizosaccharomyces pombe with 12 samples.

Results

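6 fission yeast (*Schizosaccharomyces pombe*) genes were followed across 12 Affymetrix Yeast Genome 2.0 arrays: *SPBC23G7.10c*, *SPBC1271.07c*, *SPBC1271.08c*, *urm1*, *SPAC922.03* and *SPAPB1A11.02*. They were selected on these same arrays, from 4880 *S. pombe* probe sets, for a lower level in cells without Set3p or for a response to Latrunculin A (LatA) that differed between the strains, and each is read by 1 probe set. Their strain differences and their LatA responses are therefore given as descriptions without a test. The study looked for genes that make cytokinesis reliable, through a LatA screen, genetics, localization and co-immunoprecipitation. Its arrays then asked whether the Set3p complex affects transcription of cytokinesis or cytoskeleton genes. The 4 groups, with 3 biological replicates each, were wild-type cells and *set3Δ* cells, each treated with the solvent DMSO or with LatA for 3 h at 30°C in YES medium. The labels give *ura4-D18*, *leu1-32* and *ade6-216* for both strains and add *set3::KanMX* for the mutant. The labels give the LatA dose as 0.5 mM, whereas the methods text gives it in µM with the same figure. Among the strains the study lists, the wild type with these markers is h- and the *set3Δ* strain is h+, but it is not stated which of its listed strains were hybridized. If it was these, mating type and the deletion cannot be told apart.

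Set3p is a SET and PHD finger protein of a histone deacetylase complex that also holds Snt1p, Hif2p and the deacetylase Hos2p. In budding yeast the corresponding complex removes acetyl groups from histones near the start of transcribed genes. LatA sequesters actin monomers, which weakens the actomyosin ring, and fission yeast exposed to stress raise and lower the common set of core environmental stress response (CESR) genes. The products of the 6 genes are unrelated. They are annotated as an NADH-dependent flavin oxidoreductase (*SPBC23G7.10c*), an N-acetyltransferase (*SPBC1271.07c*), a hypothetical protein (*SPBC1271.08c*), the ubiquitin-like sulfur carrier Urm1p, a 1-aminocyclopropane-1-carboxylate deaminase (*SPAC922.03*) and an esterase/lipase (*SPAPB1A11.02*). All but Urm1p carry predicted functions or none.

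All values are log2 intensities centred on each probe set's median over the 12 arrays, so 0 is that median and levels of different genes cannot be set against each other. The probe set of *set3* lay between 1.97 and 2.31 on the wild-type arrays and between -2.59 and -1.97 on the *set3Δ* arrays, as the labels require. The array score of the CESR genes, the mean of 136 CESR-UP minus the mean of 104 CESR-DN probe sets, ranged from -1.52 to -0.74 in wild type with DMSO and from 0.24 to 0.45 in wild type with LatA. In *set3Δ* it ranged from -1.06 to 0.01 with DMSO and from 0.45 to 0.70 with LatA. Of 10 probe sets for M-cell genes, 2 were called lower in *set3Δ* with DMSO and 4 with LatA. Of all probe sets, 0.123% and 3.16% were called in either direction. The M-cell calls were led by *mat3-Mc* (SPBC1711.02) at -5.55 and -6.53 and the M-factor gene *mfm2* at -4.62 and -5.58. Not all M-cell genes went this way: 3 of the 10 were higher in *set3Δ* with DMSO and 2 with LatA, including both probe sets of *mfm3* each time. Of 4 probe sets for P-cell genes, 0 were called with DMSO and *map1* was called lower with LatA, at -0.62, a call lost without any 1 of 5 of the 6 arrays. The part of stress state and mating type in the results below was not tested. RNA came from whole cultures, so less RNA per cell and fewer expressing cells cannot be told apart.

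The 6 genes followed 5 patterns on the 12 arrays. *SPBC23G7.10c* was low in *set3Δ* with both treatments, and strain accounted for 84.3% of its sum of squares. *SPBC1271.08c* and *SPAC922.03* were high in wild type with LatA and near their medians elsewhere, and *SPBC1271.07c* moved in opposite directions in the 2 strains. *urm1* was highest in wild type with DMSO, and *SPAPB1A11.02* was high in *set3Δ* with LatA alone. The spread within groups took 0.801% of the sum of squares for *SPBC23G7.10c*, 4.77% for *SPAPB1A11.02*, 5.45% for *SPAC922.03*, 6.02% for *urm1*, 10.6% for *SPBC1271.07c* and 12.5% for *SPBC1271.08c*.

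**Figure D1:**
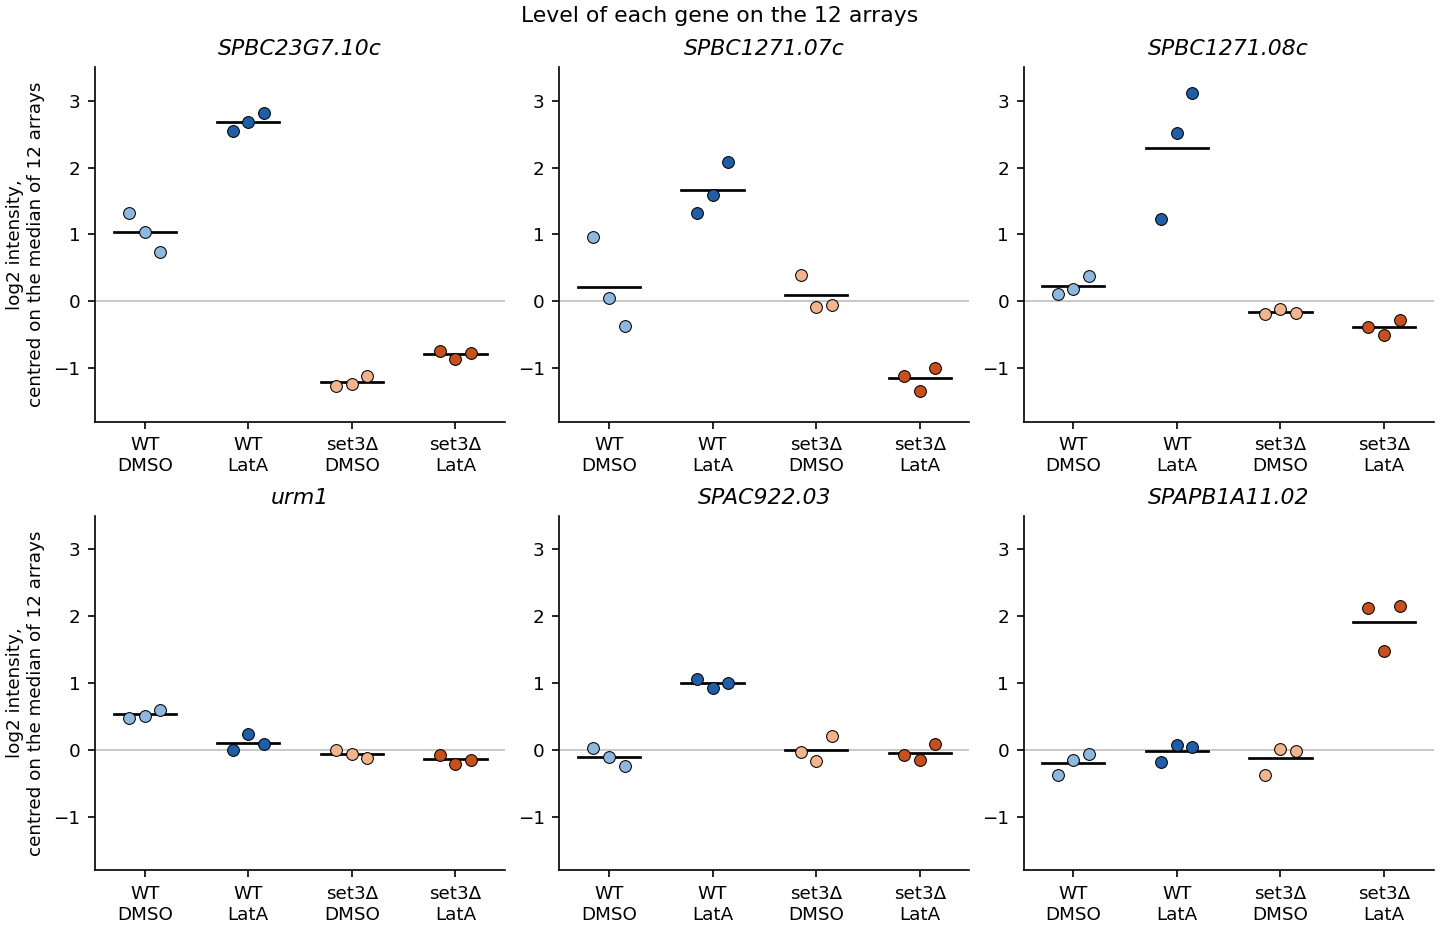
Centred log2 intensity of the 6 genes (vertical axis, 0 is the median of the 12 arrays) in the 4 groups, with 1 point per array and a line at the mean of 3 arrays. Wild type with LatA stands above the other groups for *SPBC23G7.10c*, *SPBC1271.07c*, *SPBC1271.08c* and *SPAC922.03*, while *SPAPB1A11.02* reaches 1.49 to 2.16 in *set3Δ* with LatA and stays at or below 0.08 elsewhere.

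Calls of differential expression required a fold change above 1.5 and an adjusted p below 0.05 (limma, with the Benjamini-Hochberg correction across the 4880 probe sets). With DMSO, 2 of the 6 genes (*SPBC23G7.10c* and *urm1*, both lower in *set3Δ*) were called, where 0.123% of all probe sets were. With LatA, 5 were called, 4 lower and *SPAPB1A11.02* higher, against 3.16% of all probe sets. In wild type 4 were called higher with LatA, where 14.5% of all probe sets were called. In *set3Δ*, *SPAPB1A11.02* was called higher and *SPBC1271.07c* lower, against 3.61%. The LatA response was called different between strains for *SPAC922.03* and *SPAPB1A11.02*, against 0.0615%. These counts restate how the genes were selected and support nothing further. Several depended on single arrays. The count of 2 with DMSO fell to 0 or 1 without any 1 of the 6 arrays, and the count of 2 in *set3Δ* fell to 1 without replicate 1 of *set3Δ* with DMSO and to 0 without replicate 1 or 2 of *set3Δ* with LatA. The count of 4 in wild type was 2 without replicate 2 of wild type with LatA. For the difference between responses it was 5 without replicate 1 of wild type with DMSO, 4 without replicate 3 of *set3Δ* with LatA, and 0 or 1 without any other array but replicate 3 of wild type with DMSO, where it stayed at 2.

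The LatA effect averaged over both strains is the mean of the same 2 responses, so it too is given as a description. 3 of the 6 genes were called on it, all higher with LatA, where 9.00% of all probe sets were called. The average effect was 1.11 ± 0.13 (SE) for *SPAPB1A11.02*, which comes from 0.18 in wild type and 2.05 in *set3Δ*. It was 1.03 ± 0.09 for *SPBC23G7.10c* and 0.91 ± 0.25 for *SPBC1271.08c*. *SPAC922.03* and *urm1* stayed under the fold change of 1.5, at 0.53 ± 0.07 and -0.25 ± 0.05. For *SPBC1271.07c*, whose responses had opposite signs, it was 0.10 ± 0.22. The 3 calls held when each of the 12 arrays was left out in turn.

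*SPBC23G7.10c*, the predicted flavin oxidoreductase, gave the clearest separation by strain. Its values were 1.33, 1.04 and 0.74 in wild type with DMSO and 2.54, 2.69 and 2.82 in wild type with LatA. In *set3Δ* they were -1.27, -1.24 and -1.11 with DMSO and -0.74, -0.86 and -0.78 with LatA. No 2 groups overlapped, and every *set3Δ* array lay at least 1.48 below every wild-type array. The level in *set3Δ* was 4.73-fold lower with DMSO (log2 difference -2.24 ± 0.15) and 11.1-fold lower with LatA (-3.48 ± 0.08). LatA was followed by a 3.14-fold higher level in wild type (1.65 ± 0.16) and a 1.33-fold higher level in *set3Δ* (0.42 ± 0.06). The gene belongs to the CESR-UP list, whose median strain difference with DMSO had the opposite sign: 0.45, with 123 of 136 probe sets higher in *set3Δ*. Over all probe sets that median was -0.01. The single other member of the old yellow enzyme family on the list used, the predicted NADPH dehydrogenase *SPAC5H10.10*, was lower in *set3Δ* by -0.76 with LatA (limma adjusted p = 0.0409), and this call was lost without any 1 of 5 of the 6 arrays. With DMSO its difference was -0.61 (adjusted p = 0.107).

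*SPBC23G7.10c* is the protein-coding gene next to *mat1-Mc*, which encodes the HMG-box factor that specifies the M cell, in the order of the RefSeq gene table. *mat1-Mc* and *mat1-Mi* themselves have no named probe set, and that of *mat3-Mc* reads a near-identical copy at the silent cassette. On the other side lies *mag2*, annotated as a DNA-3-methyladenine glycosidase. Its values were 0.66, 0.09 and 0.21 in wild type with DMSO, 0.52, 0.67 and 0.68 in wild type with LatA, -0.46, -0.42 and -0.37 in *set3Δ* with DMSO and -0.09, -0.19 and -0.32 in *set3Δ* with LatA. All wild-type arrays were above all *set3Δ* arrays, as for *SPBC23G7.10c*. The strain difference of *mag2* was -0.82 with LatA (limma adjusted p = 0.00352) and -0.74 with DMSO, where it did not pass (adjusted p = 0.141). Beyond it *rpt6*, a proteasome ATPase gene, differed by -0.13 with LatA and was not called.

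*SPBC1271.08c* and *SPBC1271.07c* are adjacent protein-coding genes on chromosome II. *SPBC1271.08c* was 0.11, 0.18 and 0.38 in wild type with DMSO and 1.23, 2.51 and 3.12 in wild type with LatA. In *set3Δ* it was -0.19, -0.11 and -0.18 with DMSO and -0.39, -0.51 and -0.28 with LatA. The groups did not overlap, but the wild-type LatA arrays spread from 1.23 to 3.12 (SD 0.96, n = 3), against a median SD of 0.08 over all probe sets in that group. LatA was followed by a 4.17-fold higher level in wild type (2.06 ± 0.45) and a difference of -0.23 ± 0.07 in *set3Δ*. The strains differed by -0.38 ± 0.08 with DMSO and by -2.68 ± 0.44 with LatA. *SPBC1271.08c* is, like *SPBC23G7.10c*, a CESR-UP gene.

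*SPBC1271.07c*, the predicted N-acetyltransferase, was 0.96, 0.05 and -0.37 in wild type with DMSO and 1.33, 1.59 and 2.08 with LatA. In *set3Δ* it was 0.40, -0.08 and -0.05 with DMSO and -1.13, -1.34 and -0.996 with LatA. The DMSO groups of the 2 strains overlapped, and both LatA groups stood clear of them, on opposite sides. Replicate 1 of wild type with DMSO, the highest of its group for this gene, also had the highest CESR score of its group, at -0.74. The same held for replicate 3 of wild type with LatA (0.45) and replicate 1 of *set3Δ* with DMSO (0.01). In *set3Δ* with LatA the order was reversed: replicate 2, the lowest for this gene, had the highest score (0.70), and replicate 3, the highest, had the lowest (0.45). A link was not tested. The LatA response was 1.45 ± 0.36 in wild type and -1.24 ± 0.16 in *set3Δ*, and with LatA the level was 7.05-fold lower in *set3Δ* (-2.82 ± 0.19). Over the 12 arrays the levels of the adjacent pair had a Pearson r of 0.85, as a description over arrays that share their groups. Of 12 other probe sets for N-acetyltransferases, 0 were called by strain with either treatment, where 0.123% (DMSO) and 3.16% (LatA) of all probe sets were. *SPAC18B11.03c*, which had the largest difference between responses in that list after *SPBC1271.07c*, gave 1.07 in wild type and -0.23 in *set3Δ* (adjusted p of the difference = 0.202). *naa50*, an N-terminal acetyltransferase, was called lower with LatA in wild type, by -0.60, and in *set3Δ*, by -0.59. The first call was lost without replicate 3 of either wild-type group, and the second without any 1 of 5 of the 6 arrays.

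None of the 4 measured genes on either side of this pair was called by strain, where 0.123% (DMSO) and 3.16% (LatA) of all probe sets were. With LatA the glycerophosphodiester transporter gene *tgp1* differed by 0.09 (limma adjusted p = 0.435) and *SPBC1271.05c* by -0.07 (adjusted p = 0.66). *SPBC1271.05c* did rise with LatA, by 1.16 in wild type (adjusted p = 0.0107) and by 0.84 averaged over strains (adjusted p = 0.00121). *dys1* (SPBC1271.04c), at -0.12, and *pet802* (SPBC1271.11), at -0.34 (adjusted p = 0.017, a fold change below 1.5), were not called in any contrast.

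*SPAC922.03*, the predicted 1-aminocyclopropane-1-carboxylate deaminase, responded to LatA in the wild-type arrays alone. Bacterial enzymes of this name split their substrate into ammonia and a keto acid. Its values were 0.03, -0.10 and -0.24 in wild type with DMSO, 1.07, 0.92 and 1.01 in wild type with LatA, -0.03, -0.16 and 0.21 in *set3Δ* with DMSO and -0.07, -0.14 and 0.09 in *set3Δ* with LatA. The 3 lower groups overlapped, and the wild-type LatA arrays lay at least 0.72 above all others. The response was 1.10 ± 0.08 in wild type, 2.15-fold, and -0.05 ± 0.11 in *set3Δ*, with a difference between them of -1.15 ± 0.15. In *set3Δ* the 95% interval of the response was -0.32 to 0.23.

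Among 14 probe sets of enzymes that release nitrogen from small molecules, *SPAC922.03* included, 3 were called lower in *set3Δ* with LatA, where 3.16% of all probe sets were called, and 0 with DMSO, where 0.123% were. With DMSO 5 of the 14 had an unadjusted p below 0.05, against 1111 of 4880 probe sets. The median strain difference of the list with LatA was -0.25, against 0.02 over all probe sets. *SPAC922.03* was selected on these same arrays, so its call and its part in this median restate the selection. The other 2 of the 3 called were the L-asparaginase *SPAC186.03*, at -0.71 (limma adjusted p = 0.00405), and the ammonia-lyase *sry1* (SPCC320.14), at -0.60 (adjusted p = 0.00725). *SPAC186.03* was 0.05, -0.09 and -0.34 in wild type with DMSO, 0.63, 0.60 and 0.46 with LatA, 0.07, -0.19 and 0.12 in *set3Δ* with DMSO and -0.14, -0.24 and -0.05 with LatA. Its wild-type LatA arrays alone stood above the others, as for *SPAC922.03*, and its probe set may also read similar genes. The call of *sry1* was lost without replicate 1 or 2 of wild type with LatA or without replicate 3 of *set3Δ* with LatA, through the fold change, its adjusted p staying at or below 0.0439. 2 other enzymes of the list were called with the same sign in both strains. The arginase gene *car1* rose with LatA by 1.31 in wild type and 1.15 in *set3Δ*, and the asparaginase gene *SPBPB8B6.05c* fell in both, by 1.32 and 0.80 on one probe set and by 1.20 and 0.74 on the other. In *set3Δ* these calls were lost when single arrays were left out, with adjusted p up to 0.131 for *car1* and 0.14 for *SPBPB8B6.05c*.

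*SPAC922.03* lies near the end of chromosome I, with 33 protein-coding genes beyond it among 2333 on that chromosome. Both measured genes on its inner side carried a strain difference of the same sign. *isp5*, an amino acid permease gene, was 0.02, -0.91 and -1.82 in wild type with DMSO and 1.47, 1.15 and 0.19 with LatA. In *set3Δ* it was -0.02, -0.04 and 1.26 with DMSO and -1.58, -1.19 and 0.04 with LatA. Both LatA groups of *isp5* spread widely, replicate 3 standing apart in each, and they did not overlap. *mmf2*, a relative of budding yeast Mmf1, was 0.07, -0.24 and -0.82 in wild type with DMSO and 0.91, 1.18 and 1.36 with LatA. In *set3Δ* it was -0.07, -0.25 and 0.24 with DMSO and -0.92, -0.85 and 0.15 with LatA. On the LatA arrays the strain difference was -1.85 for *isp5* (limma adjusted p = 0.0467) and -1.69 for *mmf2* (adjusted p = 0.0168), both lower in *set3Δ*. In wild type LatA raised them by 1.84 (adjusted p = 0.0334) and 1.48 (adjusted p = 0.0064). The strain calls were not stable: that of *mmf2* was lost without replicate 2 of either LatA group (adjusted p up to 0.0704) and that of *isp5* without replicate 1 or 2 of either (up to 0.144). Both were lost with each probe set's own variance, and that of *isp5* also with the replicate number as a block and in the fit on all 12 arrays. The call of *isp5* in wild type was lost without replicate 2 or 3 with DMSO or replicate 1 or 2 with LatA. On the outer side *SPAC922.04* was measured and differed by -0.02.

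**Figure D2:**
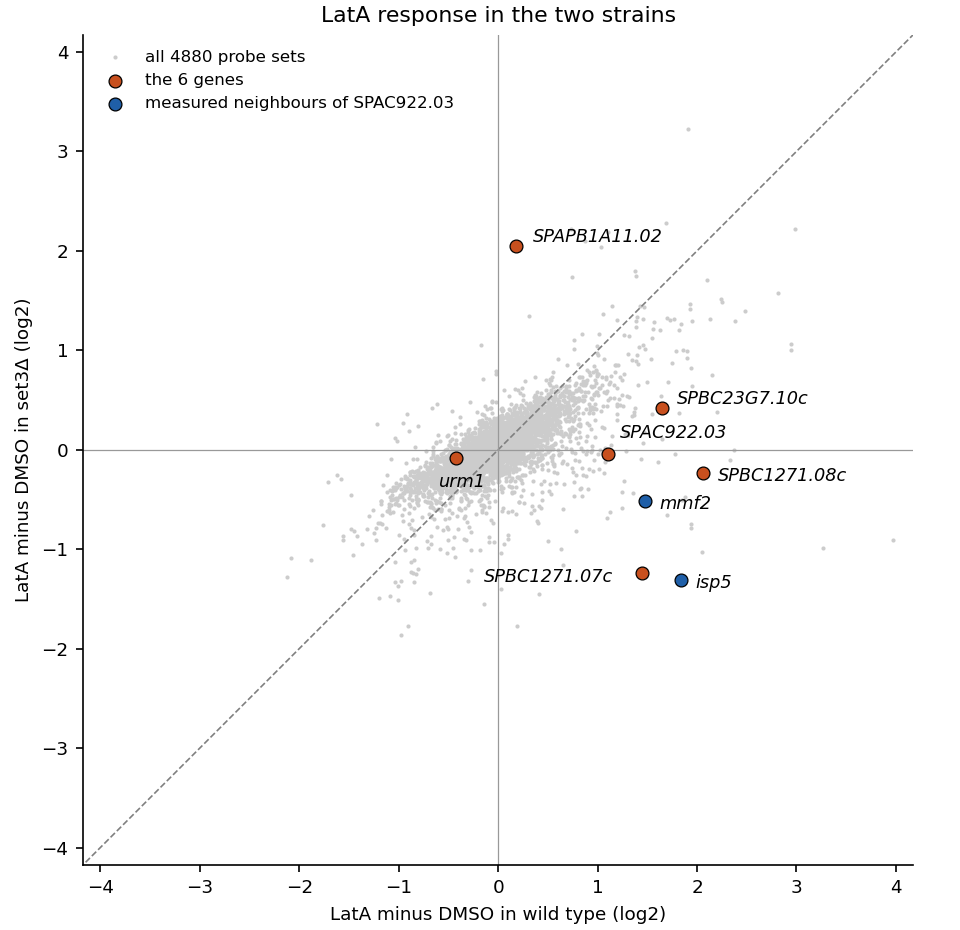
LatA minus DMSO on the log2 scale in wild type (horizontal axis) and in *set3Δ* (vertical axis) for 4880 probe sets, with the 6 genes in orange, 2 neighbours of *SPAC922.03* in blue and a dashed line of equal response. *SPAPB1A11.02* lies far above the line at 0.18 and 2.05, *SPBC1271.07c* far below it at 1.45 and -1.24, and *urm1* lies within the cloud of all probe sets.

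*urm1* showed the smallest changes of the 6 genes. Its values were 0.48, 0.51 and 0.60 in wild type with DMSO and 0.0033, 0.24 and 0.09 in wild type with LatA. In *set3Δ* they were -0.0033, -0.05 and -0.12 with DMSO and -0.07, -0.21 and -0.14 with LatA. Wild type with DMSO stood above the other groups, and the 2 *set3Δ* groups overlapped. The level was 1.51-fold lower in *set3Δ* with DMSO (-0.59 ± 0.06), just over the fold threshold, and 1.19-fold lower with LatA (-0.25 ± 0.07). The call with DMSO was lost without any 1 of the 6 arrays (limma adjusted p from 0.0903 to 0.365) and held in 1 of 12 alternatives. The LatA response was -0.42 ± 0.08 in wild type and -0.08 ± 0.06 in *set3Δ*. Like *SPAC922.03* and *SPAPB1A11.02*, *urm1* was in neither the CESR-UP list nor the list of genes annotated to the cellular response to stress. *SPBC1271.07c* was in the second list alone.

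Urm1p passes sulfur to the wobble uridine of certain tRNAs, a modification completed by other enzymes. Of 14 probe sets for this pathway, *urm1* included, 5 were called lower and 1 higher with LatA in wild type, where 14.5% of all probe sets were called. In *set3Δ* 0 were called lower and 1 higher, where 3.61% were. The median response of the list was -0.45 in wild type and -0.08 in *set3Δ*, against -0.03 and -0.02 over all probe sets. No member of the list passed the test of a difference between the responses (7 of 14 had an unadjusted p below 0.05, against 986 of 4880 probe sets in all). *urm1* was selected on these same arrays, so its place among the 7 and its part in these medians restate the selection. The genes called lower were *trm112* (-0.82, limma adjusted p = 0.00486) and *trm9* (-0.75, adjusted p = 0.00482), which methylate the wobble base, *elp2* (-0.66, adjusted p = 0.00486) and *elp3* (-0.59, adjusted p = 0.00796) of Elongator, and the Elongator-associated *kti12* (SPAC30.02c; -0.64, adjusted p = 0.0215). The call of *kti12* was lost without any 1 of 4 of the 6 arrays (adjusted p up to 0.067) and that of *elp3* without replicate 2 or 3 of wild type with DMSO or replicate 3 with LatA, through the fold change. *ctu1* and *ctu2*, whose products form the thiolase that uses Urm1p, gave -0.53 and -0.49 in wild type and -0.0044 and 0.09 in *set3Δ*. *tum1*, a sulfurtransferase gene upstream of Urm1p, rose by 0.97 in wild type (adjusted p = 0.00482) and by 0.70 in *set3Δ* (adjusted p = 0.0362), the latter call being lost without any 1 of 5 of the 6 arrays. With DMSO the one gene of the list called by strain was *urm1*, whose call restates its selection, and 10 of 14 were negative. With LatA 0 of 14 were called, where 3.16% of all probe sets were. There 6 had an unadjusted p below 0.05, the selected *urm1* among them, and 9 of 14 were positive.

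**Figure D3:**
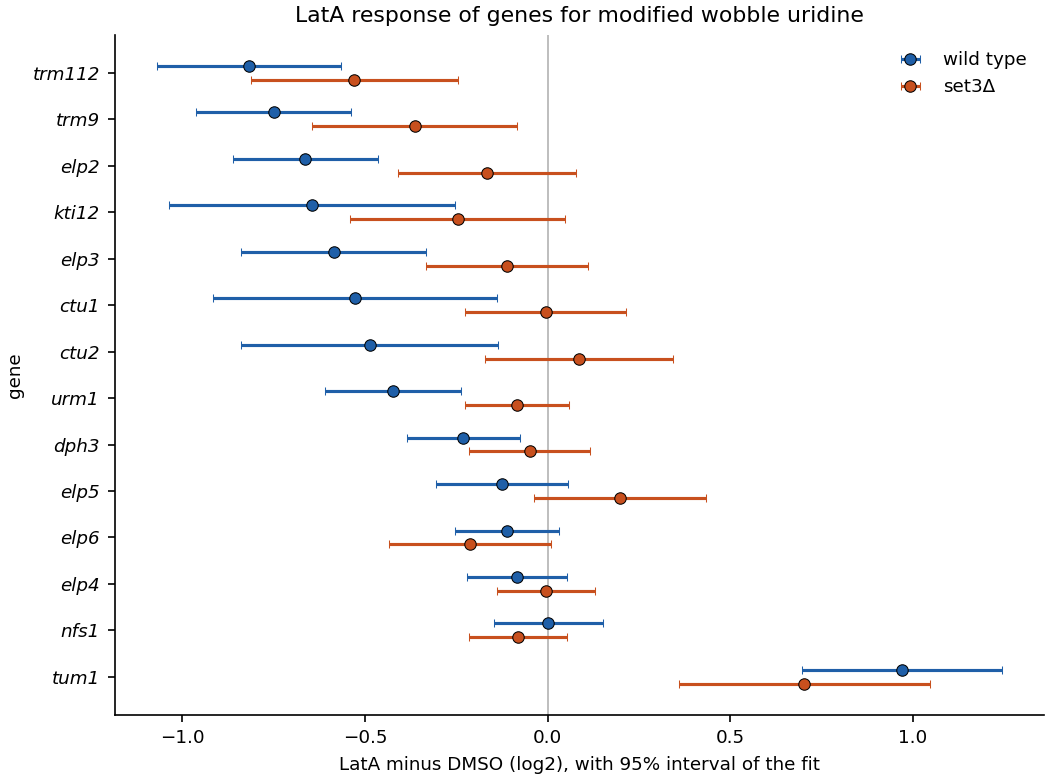
LatA minus DMSO (horizontal axis, log2, points with the 95% interval of the fit on 6 arrays) in wild type (blue) and *set3Δ* (orange) for the 14 genes of wobble uridine modification, ordered by the wild-type response. Wild-type values run from -0.82 (*trm112*) to 0.97 (*tum1*), and those in *set3Δ* lie closer to 0 for all but *elp5*, *elp6* and *nfs1*.

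The neighbours of *urm1* on chromosome III include the hexose transporter genes *ght5*, *ght8* and *ght1*. *ght5* was lower in *set3Δ* with LatA by -1.04 (limma adjusted p = 0.00361). Its values were 0.41, 0.71 and 0.65 in wild type with DMSO, 0.03, -0.03 and 0.25 with LatA, -0.46, 0.46 and -0.14 in *set3Δ* with DMSO and -1.06, -1.004 and -0.80 with LatA. The 2 LatA groups did not overlap. Averaged over strains, *ght5* fell by 0.71 with LatA (adjusted p = 0.00203) and *ght1* fell by 0.74 (adjusted p = 0.0238). The first call was lost without replicate 2 of *set3Δ* with DMSO and the second without any 1 of 6 of the 12 arrays. *ght8*, *dga1* and *dbl5*, the remaining measured neighbours, were not called in any contrast.

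*SPAPB1A11.02*, the predicted esterase/lipase, was the one gene of the 6 with a higher level in *set3Δ* and LatA together. Its values were -0.38, -0.16 and -0.06 in wild type with DMSO, -0.18, 0.08 and 0.04 in wild type with LatA and -0.38, 0.02 and -0.02 in *set3Δ* with DMSO. In *set3Δ* with LatA they were 2.12, 1.49 and 2.16. The 3 lower groups overlapped, and the *set3Δ* LatA arrays lay at least 1.41 above all of them. The LatA response was 4.13-fold in *set3Δ* (2.05 ± 0.21) and 0.18 ± 0.11 in wild type. Their difference of 1.87 ± 0.25 was the highest of the 4880 probe sets, which restates how the gene was selected. The call of this difference was lost without any 1 of 9 of the 12 arrays (limma adjusted p up to 0.15). Of 8 other predicted esterases and lipases, 0 were called by strain, where 0.123% (DMSO) and 3.16% (LatA) of all probe sets were. *SPAC1039.03* had the next largest difference between responses, at -0.36 (limma adjusted p = 0.0934), and *atg15*, a lipase gene of autophagy, was called higher in wild type, by 0.69 (adjusted p = 0.00577).

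The FMN-dependent dehydrogenase gene *SPAPB1A11.03*, 2 protein-coding genes away from *SPAPB1A11.02*, was higher in *set3Δ* with LatA by 0.74 (limma adjusted p = 0.00845). It was -0.25, -0.02 and -0.04 in wild type with DMSO, -0.28, -0.02 and -0.21 in wild type with LatA, 0.12, 0.02 and 0.11 in *set3Δ* with DMSO and 0.73, 0.55 and 0.42 in *set3Δ* with LatA. As for *SPAPB1A11.02*, the *set3Δ* LatA arrays were the highest, at smaller differences. The gene between them, *mca1* (SPAPB1A11.04c), was at 0.0012, and *mfc1* on the other side was at 0.03. *agl1* (SPAPB24D3.10c), an alpha-glucosidase gene, was called higher with LatA in wild type, by 0.75 (adjusted p = 0.0178), and this call was lost without replicate 2 with DMSO or without any LatA array.

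Taking 3 protein-coding genes on each side of each member, 20 neighbours had a probe set. 5 of these 20 were called by strain with LatA, 4 lower (*isp5*, *mmf2*, *mag2* and *ght5*) and *SPAPB1A11.03* higher, where 3.16% of all probe sets were called. Each had the sign of the member it lies near, but 5 of the 6 members were negative. Of all probe sets, 105 were called lower and 49 higher. *isp5* and *mmf2* lie side by side near the same member, and *urm1*, near *ght5*, was not itself called with LatA (-0.25). The count was 3 without replicate 2 of wild type with LatA and without replicate 2 of *set3Δ* with LatA. With DMSO 0 of 20 were called by strain, with 5 at an unadjusted p below 0.05, against 1111 of 4880 probe sets. Their median strain differences were 0.04 with DMSO and -0.04 with LatA, against -0.01 and 0.02 over all probe sets. When all annotated genes were counted along the chromosome, most of them non-coding, 3 neighbours had a probe set and *mag2* alone was called.

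**Figure D4:**
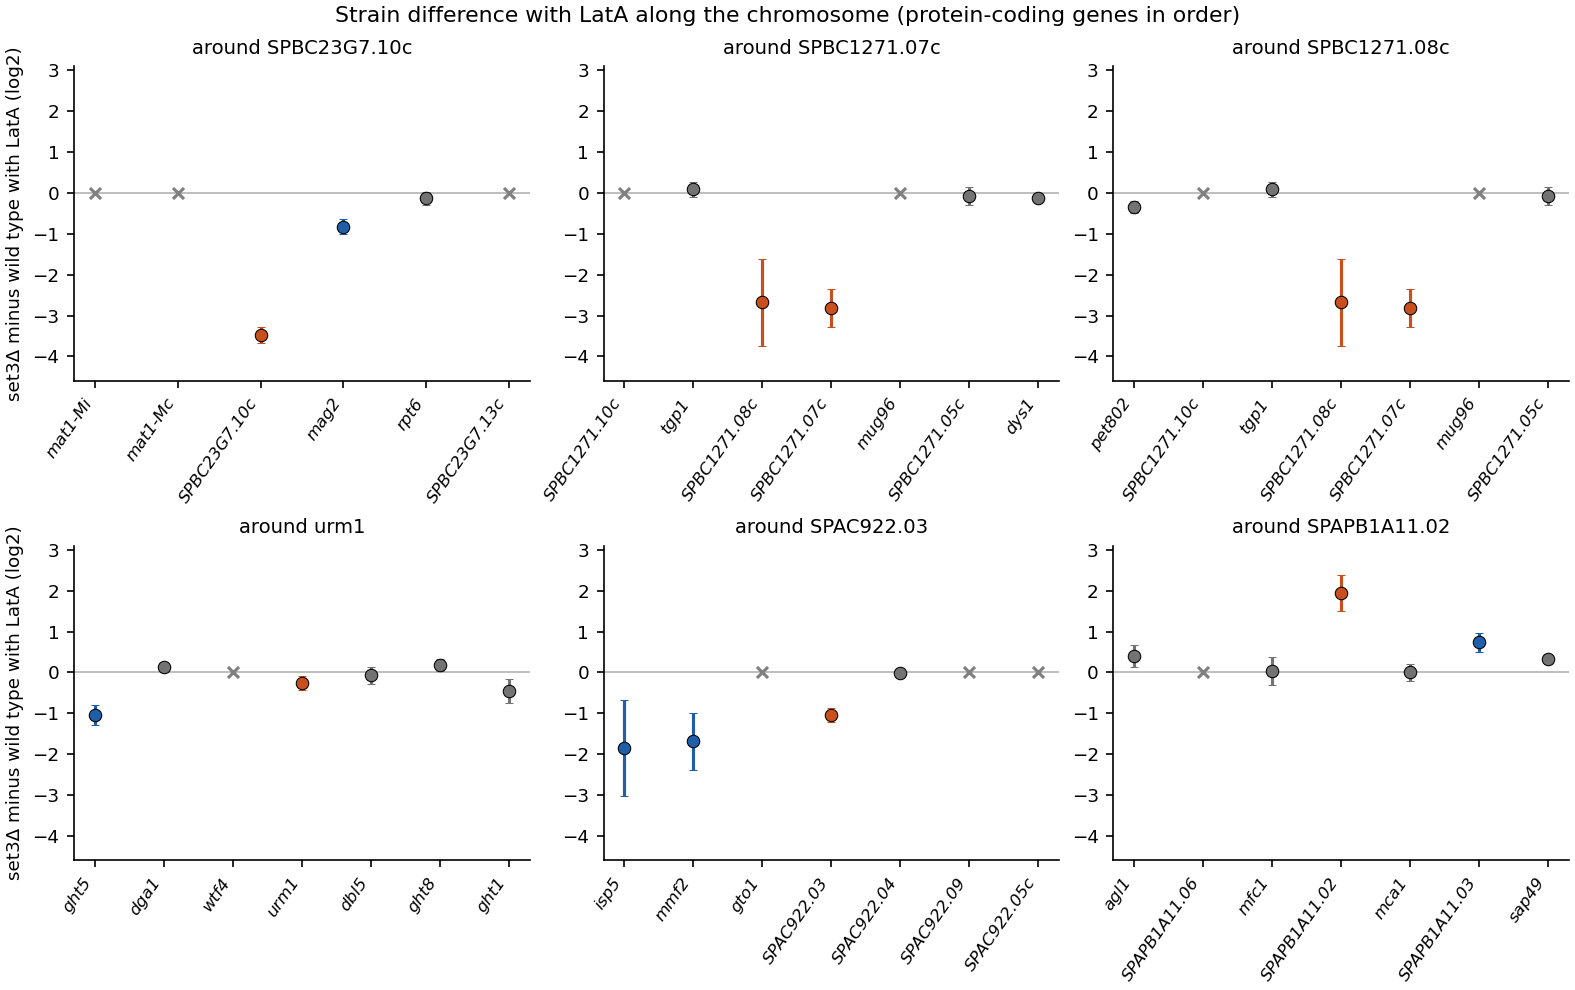
Strain difference with LatA (vertical axis, log2, *set3Δ* minus wild type, with the 95% interval of the fit) for the 6 genes (orange) and 3 protein-coding genes on each side in chromosomal order (blue where called, grey where not, a cross where no probe set was measured, 1 uncalled neighbour not shown). *SPBC1271.07c* and *SPBC1271.08c* lie at -2.82 and -2.68 between genes near 0, while *SPAC922.03* at -1.04 stands beside *mmf2* at -1.69 and *isp5* at -1.85.

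Over the 12 arrays, 4 of the genes ran together. Pearson's r was 0.86 between *SPBC23G7.10c* and *SPBC1271.08c*, 0.86 between *SPBC1271.08c* and *SPAC922.03*, 0.81 between *SPBC23G7.10c* and *SPBC1271.07c* and 0.78 between *SPBC23G7.10c* and *SPAC922.03*. *SPAPB1A11.02* had negative values with the other 5 genes, the lowest being -0.70 with *SPBC1271.07c*. *urm1* reached 0.50 with *SPBC23G7.10c* and was at -0.10 with *SPAC922.03*. These are descriptions, since the arrays share their 4 groups and the genes were selected for such patterns.

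Genes outside the 6 were picked on these arrays for likeness to the selected genes, by Pearson's r over the 12 arrays. Their differences in this and the next paragraph are therefore descriptions without a test. The genes most like each were as follows. For *SPBC23G7.10c* they were *pet802* (SPBC1271.11), a mitochondrial carrier (0.97), the pseudogene *SPAC750.01* (0.96) and its neighbour *mag2* (0.95). With LatA *SPAC750.01* differed by -5.07 between *set3Δ* and wild type. For *SPBC1271.07c* they were *arh1*, an electron carrier (0.97), the ATPase *SPAC323.04* (0.97) and *SPAC977.09c*, a lysophospholipase (0.94). For *SPBC1271.08c* they were *SPAC186.06* (0.96), the amino acid transporter *SPCC965.11c* (0.96) and the methyltransferase *SPCC70.08c* (0.95).

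*SPAC922.03* was most like the L-asparaginase *SPAC186.03* (0.96), *cdd1*, a cytidine deaminase gene (0.94), and the pseudogene *SPCC18B5.02c* (0.93). *urm1* was most like *SPCC736.02* (0.98), the checkpoint clamp gene *rad1* (0.98) and *rex2* (0.95). The levels of *SPAPB1A11.02* were closest to those of the malic enzyme pseudogene *SPAC212.09c* (0.95), *sec9*, a SNARE of exocytosis (0.94), and the alcohol dehydrogenase *SPBC1773.06c* (0.93). Likeness of shape did not mean likeness of size: with LatA the strain difference was 1.94 for *SPAPB1A11.02* and 0.27 for *sec9*. *SPBC1773.06c* rose with LatA in both strains, by 0.88 in wild type and by 2.10 in *set3Δ*. Its call in *set3Δ* was lost without replicate 1 of *set3Δ* with DMSO or replicate 1 or 2 of *set3Δ* with LatA.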

How the data were processed

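Total RNA from 12 cultures was hybridized to Affymetrix Yeast Genome 2.0 arrays. The authors normalized the arrays with RMA in GeneSpring GX, and the deposited values are log2 intensities, each probe set centred on its median over the 12 arrays, as the values show. Centring removes the level, so signal over background could not be judged, dim probe sets were kept, and precision is given by the spread over 3 arrays.

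Probe sets were named through the platform table (3917 with 1 gene, 19 with several, 944 with none) and 3918 were matched to RefSeq genes (ASM294v3), used for names and gene order only. For the array's annotation, the sources used here give no build. The members and lists were chosen with earlier results of these data known. Pairwise contrasts were fitted with limma 3.58.1 (R 4.3.3) on the 6 arrays concerned, and the difference and the average of the LatA responses on all 12, and the code was tested on simulated data. Calls took an adjusted p below 0.05 over 4880 probe sets and a fold change above 1.5, the thresholds of the study's methods, in which the test is not named. Each ± is limma's standard error. Named were all 6 members, called neighbours, up to 4 genes of each role list by difference of responses plus called ones, 3 like genes per member, and the strongest mating markers. Neighbours were counted over protein-coding genes, a choice made after the gene table was seen, and 1 of them is not reported here by name. The study's strain list and gene lists came from its supplement. In the pathway list *ats1*, whose product is an N-acetyltransferase, was left out. Alternatives were other fits, scalings and thresholds, and leaving out each array.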

Additional observations from a re-analysis of the deposited data

Results flagged for a closer look

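Both values given here restate how the genes were selected, and neither is a test. The LatA response in *set3Δ* minus that in wild type passed the thresholds set over all 4880 probe sets for 2 of the 6 genes. For *SPAC922.03* it was -1.15. It kept its direction in all 17 alternatives, from -1.23 to -1.05, and passed the thresholds in 8 of them. For *SPAPB1A11.02* it was 1.87, from 1.74 to 2.08 over 17 alternatives, and passed in 6.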

How the results depend on the processing

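Re-analysis with other settings changed the number of the 6 genes called as follows. With the replicate number as a block, the strain difference with DMSO gave 0 in place of 2 and the response in wild type 3 in place of 4. The response in *set3Δ* gave 0 in place of 2 and the difference between responses 1 in place of 2. Same-numbered arrays did not deviate together in a regular way (r from -0.50 to 0.56 over 18 pairs, 7 above 0.1). Between the DMSO arrays of the 2 strains r was 0.44, 0.56 and -0.50 for replicates 1, 2 and 3. The numbers were not taken to pair the arrays, but a shared batch of some arrays was not excluded. With each probe set's own variance the counts were 0 for the strain difference with DMSO and 4 in place of 5 for that with LatA. They were 2 in place of 4 for wild type, 0 for *set3Δ* and 0 for the difference between responses. With arrays centred on their median, 1 gene differed by strain with DMSO and 4 responded differently. A fold change above 2, or leaving out probe sets that may match several genes, left 1 by strain with DMSO. The fold change above 2 also left 2 in place of 3 for the average LatA effect. For other genes, whose alternatives were chosen after the data were seen, a fold above 2 left 3 of 5 neighbours, 0 of 6 Urm1 pathway genes and 1 of 3 nitrogen-release genes. That 1 was the selected *SPAC922.03*. Own variance left 2 neighbours, and counting all annotated genes left 1. By Spearman's rho in place of Pearson's r, 7 of 18 most alike genes remained.

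Leaving out single arrays moved the counts from 0 to 1 (strain, DMSO), 4 to 5 (strain, LatA), 2 to 4 (wild type), 0 to 2 (*set3Δ*), 0 to 5 (difference between responses) and 3 to 3 (average), and from 3 to 5 for neighbours, 4 to 6 for Urm1 pathway genes and 2 to 3 for nitrogen-release genes. Over all probe sets the difference between responses gave 3 calls, and 260 without replicate 1 of wild type with DMSO. Fitting all 12 arrays at once gave 93 strain calls with DMSO in place of 6. Of 651 single-gene values under alternatives, 551 stayed on the same side of the thresholds (called or not called), 91 lost a call and 9 gained one. Among values called in either fit, 0 changed sign. Some uncalled values did, such as the strain difference of *SPBC1271.07c* with DMSO (-0.13, from -0.42 to 0.25). Quantile normalization was not run, since centred values hold no level.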
